A study of Mus musculus with 64 samples.

Results

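The data are autosomal peaks of H2AK119Ub, the histone H2A with ubiquitin on a lysine of its tail, at 12 and 24 h of stimulation in mouse B cells. They come from 8 of the 64 samples of the series, 3 at 12 h and 5 at 24 h, chosen by antibody and time label. Cells were CD23+ B cells from the spleens of female mice, taken with a biotinylated antibody to CD23, and were exposed to 1 µM CpG, a DNA ligand of the receptor TLR9. Another 4 libraries of unstimulated cells (0 h) serve as a reference level. All these mice were F1 hybrids of C57BL/6 dams heterozygous for an Xist deletion and M. m. castaneus sires. The labels do not say which animals inherited the deletion, and Xist acts on the X chromosome, which was left out here. The method was CUT&RUN, in which an antibody guides a nuclease to chromatin and the released fragments are sequenced. The authors' peak lists carry the name of the Cast allele, so the values describe the paternal chromosomes. Replicates are called biological in the labels, but nothing ties a number at 12 h to the same number at 24 h.

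Polycomb repressive complex 1 places ubiquitin on H2A through its catalytic subunits Ring1A and Ring1B. Polycomb repressive complex 2, of which Suz12 is a subunit, methylates H3K27, and both marks are known for keeping developmental genes silent. Variant forms of the first complex also deposit H2AK119Ub at low levels widely, including near CpG-rich promoters of active genes, whose nucleosomes carry the acetyl mark H3K27ac.

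H2AK119Ub covered about as much of the 19 autosomes at both times, but at 24 h more of it lay in genes and in acetylated chromatin. The 12 h lists held 11764 to 17735 peaks and covered 122.5, 160.8 and 100.2 Mb. The 24 h lists held 9925 to 21922 peaks and covered 212.8, 113.1, 112.1, 59.1 and 162.8 Mb. The 24 h range encloses the 12 h range, and 24 h replicate 4 is the shortest of the 8 lists. The means were 128 ± 30.7 Mb (SD, n = 3) and 132 ± 58.2 Mb (SD, n = 5), and the log2 difference of -0.05 was not larger than the spread (exact permutation p = 0.929, 2-sided). Pairs of lists shared a median 0.410 of the bases covered by either within 12 h, 0.428 within 24 h and 0.393 across the times. Read depth is unknown, and the lowest peak maximum kept was a signal of 5 to 6 in the 12 h lists and 4 to 6 in the 24 h lists. H3K27ac served as the check of cell type. It covered part of 6 of 6 B cell genes in each of 6 libraries at 12 and 24 h, with a mean of 86.0% at 24 h, and it was listed at 0 over Cd3e, Cd4, Cd8a, Thy1, Lyz2, Mpo and S100a8 at both times. Acetylated in each of the 6 libraries were 1 of 6 T cell, 0 of 5 myeloid and 1 of 3 erythroid and stromal genes, namely Cd3d (41.6% at 24 h) and Pecam1 (72.6%). In some of the 6 libraries it was also listed over Cd3g (mean 1.79% at 24 h), Csf1r (12.1%) and Itgam (8.24%), and over Klf1 at 12 h (12.9%).

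A gene region here is the gene body with 2 kb on each side, and its value is the percent of the region covered by peaks. Of 33069 autosomal genes, 15327 had no peak in any of the 8 libraries and 13220 had one in at least 3 of them and were tested. That filter is not even-handed, since a gene marked at 24 h alone passes with 3 of 5 libraries and a gene marked at 12 h alone needs 3 of 3. By limma with Benjamini-Hochberg adjustment over all genes tested, 30 genes (0.227%) changed at an adjusted p under 0.05, with 15 higher at 24 h (0.113%) and 15 lower (0.113%). A further description that uses no model is whether the libraries of both times overlap. All 5 values at 24 h lay above all 3 at 12 h in 562 genes (4.25%) and below them in 223 genes (1.69%). The limma count rests on all libraries together: 0 genes passed without any 1 of the 3 libraries at 12 h or of replicates 1, 2, 3 and 5 at 24 h, against 154 genes (136 higher, 18 lower) without 24 h replicate 4. After dividing each value by its library's covered length, 0 genes passed by limma while 1518 had an unadjusted p under 0.05, and the 30 genes kept their direction in each of these fits that tested them.

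Promoters of genes from both ends of the list are shown first, by the rule that takes the largest changes with an entry in the promoter table. Each is the RefSeq sequence (GRCm38.p6, the assembly of mm10) from 250 bases before to 50 after a gene start, with each CG dinucleotide in capitals. The 3 genes higher at 24 h are Ado (chr10:67548906-67549205, minus strand), Hspb6 (chr7:30552290-30552589, plus strand, the first of 2 entries) and Neurl2 (chr2:164833547-164833846, minus strand). The 3 genes lower at 24 h are Calhm4 (chr10:34044264-34044563, minus strand), Krt27 (chr11:99351069-99351368, minus strand) and Cd59b (chr2:104070816-104071115, plus strand).
Ado: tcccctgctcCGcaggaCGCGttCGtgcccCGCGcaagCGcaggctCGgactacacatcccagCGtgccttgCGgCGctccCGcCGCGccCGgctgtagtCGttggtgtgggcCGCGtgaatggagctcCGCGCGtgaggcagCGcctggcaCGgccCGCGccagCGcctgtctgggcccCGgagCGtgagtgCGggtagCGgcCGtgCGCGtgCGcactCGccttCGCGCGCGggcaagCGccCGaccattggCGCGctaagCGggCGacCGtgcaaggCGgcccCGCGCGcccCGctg
Hspb6: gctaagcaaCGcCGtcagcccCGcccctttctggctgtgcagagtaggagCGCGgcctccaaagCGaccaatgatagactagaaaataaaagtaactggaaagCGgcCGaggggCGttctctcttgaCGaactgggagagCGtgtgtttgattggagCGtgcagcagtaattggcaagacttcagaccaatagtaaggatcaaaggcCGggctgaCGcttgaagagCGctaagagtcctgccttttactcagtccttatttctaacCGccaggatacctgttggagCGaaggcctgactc
Neurl2: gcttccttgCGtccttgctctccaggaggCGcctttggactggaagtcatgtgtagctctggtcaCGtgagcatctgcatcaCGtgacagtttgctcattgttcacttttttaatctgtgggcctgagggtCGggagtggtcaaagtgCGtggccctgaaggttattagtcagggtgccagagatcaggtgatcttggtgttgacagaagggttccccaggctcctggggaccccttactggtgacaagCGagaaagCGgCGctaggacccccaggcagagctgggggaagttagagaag
Calhm4: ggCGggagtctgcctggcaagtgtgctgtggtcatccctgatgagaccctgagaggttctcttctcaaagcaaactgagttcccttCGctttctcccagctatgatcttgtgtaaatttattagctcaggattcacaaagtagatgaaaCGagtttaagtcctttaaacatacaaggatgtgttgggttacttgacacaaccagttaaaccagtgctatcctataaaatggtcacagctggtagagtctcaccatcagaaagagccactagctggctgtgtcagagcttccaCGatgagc
Krt27: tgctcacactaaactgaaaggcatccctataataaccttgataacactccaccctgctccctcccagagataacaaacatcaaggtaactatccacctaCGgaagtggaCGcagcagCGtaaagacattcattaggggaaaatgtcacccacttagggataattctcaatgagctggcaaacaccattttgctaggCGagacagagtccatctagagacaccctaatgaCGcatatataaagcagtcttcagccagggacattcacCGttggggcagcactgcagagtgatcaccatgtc
Cd59b: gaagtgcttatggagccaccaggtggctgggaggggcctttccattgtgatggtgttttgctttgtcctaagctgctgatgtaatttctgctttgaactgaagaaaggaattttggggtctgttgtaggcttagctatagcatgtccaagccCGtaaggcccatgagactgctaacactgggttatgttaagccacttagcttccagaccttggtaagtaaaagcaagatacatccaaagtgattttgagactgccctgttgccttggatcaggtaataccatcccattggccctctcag

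The letters CG, which read alike on both strands, occur 51 times in the Ado window, 17 times in that of Hspb6 and 9 times in that of Neurl2. They occur 4 times in the Calhm4 window, 6 times in that of Krt27 and 1 time in that of Cd59b. Of 25747 autosomal promoters in the table, 44.5% hold at least 10. The split does not hold for the other named genes: Sfn, which rose, has 4, and Pole4, Mcm5 and Efcab8, which fell, have 33, 25 and 19. These counts describe the letters and are no test of a factor. The Ado, Hspb6 and Neurl2 windows were covered at 0% in each 12 h library. At 24 h they were covered at 100% in each library, apart from 86.7% for Ado in replicate 4. The Calhm4 window went the other way, from 100% in each 12 h library to 0% in each 24 h library. The Krt27 window was covered at 9.33, 0 and 25% and the Cd59b window at 100, 100 and 0% at 12 h, and both were at 0% in each 24 h library, so in Krt27 the 12 h coverage lay mostly elsewhere in the gene region.

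Of the 15 genes that rose, 9 have a name and 6 are predicted lncRNA models. Positions below are those of the gene itself in mm10. The 15 genes are short, with a median length of 3.08 kb against 16.2 kb for all genes tested, and mostly acetylated. In 11 of the 15, no 12 h library had a peak, so these entered the test only through their 24 h peaks, and 12 of the 15 had none at 0 h. The 12 h values of these 11 genes are all 0 and add no spread to the limma fit, so their p-values rest partly on this floor. Mean H3K27ac coverage at 24 h exceeded 10% in 12 of the 15 (30.8% of all genes tested), and mean H3K27me3 coverage exceeded 10% in 3 (52.1% of all).

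Ado, which encodes a thiol dioxygenase that oxidises cysteamine (chromosome 10, 67544511 to 67548955), was covered at 0, 0 and 0% at 12 h and at 100, 76.0, 89.1, 63.9 and 100% at 24 h. The lowest 24 h library is replicate 4, and it is still far above 12 h. The rise was 85.8 percentage points (SE 11.4, limma adjusted p = 0.0335). The region runs into that of Egr2, a zinc finger factor induced by antigen receptor signals, whose own coverage of 65.6, 63.0 and 24.7% at 12 h and 100, 63.5, 68.2, 74.3 and 100% at 24 h did not pass (adjusted p = 0.538).

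Hspb6, a small heat shock protein gene (chromosome 7, 30552535 to 30555443), was at 0 in each 12 h library and at 88.7, 85.1, 73.2, 65.0 and 94.2% at 24 h, a rise of 81.2 points (SE 10.3, limma adjusted p = 0.0335). Its region overlaps those of Lin37 and Proser3, so 1 peak can count for all of them. Neurl2, an adaptor of a ubiquitin ligase (chromosome 2, 164830730 to 164833596), was at 0, 9.76 and 0% at 12 h and at 100, 67.2, 84.6, 80.3 and 85.3% at 24 h. It rose by 80.2 points (SE 10.4, adjusted p = 0.0335), and its region overlaps that of Ctsa, the gene of a lysosomal protease.

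B3galt4, a galactosyltransferase of ganglioside synthesis (chromosome 17, 33949912 to 33951488), was at 0 in each 12 h library and at 82.0, 70.5, 66.6, 75.7 and 100% at 24 h. It rose by 79.0 points (SE 10.6, limma adjusted p = 0.0335). The neighbouring Rps18, a ribosomal protein gene whose region overlaps, was at 13.4, 13.4 and 6.68% and then at 63.4, 41.9, 64.9, 52.1 and 75.4%, without overlap between the times but short of the threshold (adjusted p = 0.178).

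Pnpla2, the adipose triglyceride lipase (chromosome 7, 141455188 to 141460743), already had a small covered stretch at 12 h, 8.14, 8.99 and 9.39%, and reached 95.4, 78.1, 100, 77 and 78.4% at 24 h. The rise was 76.9 points (SE 9.95, limma adjusted p = 0.0335). Its region overlaps those of Cracr2b, Gm10575 and Rplp2. Cracr2b was already at 68.3, 69.1 and 69.5% at 12 h and did not pass (limma adjusted p = 0.422). Sfn, which encodes the 14-3-3 protein sigma (chromosome 4, 133600556 to 133602168), went from 0 in each 12 h library to 79.4, 72.5, 82.7, 56.3 and 69.5%, a rise of 72.1 points (SE 9.70, adjusted p = 0.0335). In both genes the lowest 24 h value is that of replicate 4.

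Nudt22, of the Nudix hydrolase family (chromosome 19, 6993019 to 6996103), went from 0 in each 12 h library to 61.5, 59.0, 71.7, 54.0 and 72.1% (a rise of 63.7 points, limma adjusted p = 0.039). The predicted lncRNA Gm35838 lies at the same locus and rose with it. Iscu, the scaffold on which iron-sulfur clusters are built (chromosome 5, 113772418 to 113778288), went from 0 in each 12 h library to 49.4, 50.5, 48.3, 46.6 and 55.3% (a rise of 50.0 points, adjusted p = 0.0459). Its 24 h values lie close together, including replicate 4.

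Rab34, a small GTPase of membrane transport and cilium formation (chromosome 11, 78188427 to 78192193), differs from the others in its history. It was at 100, 100, 90.2 and 0% at 0 h, at 33.8, 52.2 and 35.7% at 12 h and at 100, 100, 100, 91.3 and 100% at 24 h. The 12 h libraries thus lie below 3 of the 4 unstimulated libraries as well as below each 24 h library. The rise after 12 h was 57.7 points (SE 7.56, limma adjusted p = 0.0335). H3K27me3 rose over the same gene, from 52.7% ± 14.6 (SD, n = 3) to 97.6% ± 4.85 (SD, n = 4; adjusted p = 0.00877), and H3K27ac was listed at 0 there.

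The 15 genes that fell include 9 with a name and 6 predicted lncRNA models. In 12 of the 15, no 24 h library had a peak, and the filter lets such a gene in only with a peak in each 12 h library. The 24 h values of these 12 genes are all 0 and add no spread to the limma fit, so here too the p-values rest partly on the floor. At 0 h, 14 of the 15 had no peak. With the filter loosened to 1 library, 0 genes fell by limma (1276 genes in either direction at an unadjusted p under 0.05). Of the 9 named genes that fell, Pole4 and Calhm4 alone had enough peaks to be tested with lists of equal length. Mean H3K27ac coverage at 24 h exceeded 10% in 1 of the 15 (30.8% of all genes tested), and mean H3K27me3 coverage exceeded 10% in 12 (52.1% of all).

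Calhm4, of a family of calcium-modulated channels (chromosome 10, 34038784 to 34044313), was covered at 76.2, 90.1 and 73.0% at 12 h and at 9.91, 10.2, 9.75, 4.17 and 10.4% at 24 h. Its region lies in that of the longer Trappc3l, which changed by -17.1 points and did not pass (limma adjusted p = 0.547). Unstimulated libraries were split at Calhm4, at 9.77, 69.9, 0 and 70.4%. The change was -70.9 points (SE 8.41, limma adjusted p = 0.0335). It was -46.8 points (adjusted p = 0.433) with stricter lists and -1.52 points (adjusted p = 0.892) with lists cut by highest signal to equal length. H3K27me3 stayed high over the gene, at 89.6% ± 0.498 (SD, n = 3) and 83.2% ± 7.5 (SD, n = 4; adjusted p = 0.284).

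Krt27, a keratin of the hair follicle (chromosome 11, 99345565 to 99351118), was at 68.8, 59.3 and 39.6% at 12 h and at 0 in each 24 h library, a change of -55.9 points (SE 7.72, limma adjusted p = 0.0371). Here too H3K27me3 covered nearly the whole region at both times, 87.7% ± 15.9 and 95.0% ± 10.0 (SD, n = 3 and 4; adjusted p = 0.485). Ly6d, a surface protein that marks committed B cell progenitors (chromosome 15, 74762056 to 74763567), was at 30.4, 33.4 and 33.0% and then at 0 in each 24 h library, a change of -32.3 points (SE 3.76, adjusted p = 0.0335).

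Cd59b, an inhibitor of the complement attack complex (chromosome 2, 104069781 to 104085790), was at 27.6, 27.6 and 37.3% at 12 h and at 0 in each 24 h library, a change of -30.8 points (SE 4.07, limma adjusted p = 0.0335). H3K27me3 moved the other way, from 21.0% ± 1.86 (SD, n = 3) to 58.6% ± 15.2 (SD, n = 4; adjusted p = 0.0254). S100a16, a calcium-binding protein gene (chromosome 3, 90537254 to 90543151), was at 26.8, 30.2 and 19.9% and then at 0 in each 24 h library, a change of -25.6 points (SE 3.52, adjusted p = 0.0371). Mro (chromosome 18, 73851826 to 73881334) was at 15.2, 16.6 and 24.1% and then at 0 in each 24 h library, a change of -18.7 points (SE 2.68, adjusted p = 0.0408), and the predicted Gm32661 at the same locus fell with it.

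Smaller stretches were lost inside larger genes. Mcm5, a subunit of the replicative DNA helicase (chromosome 8, 75109468 to 75128439), was at 17.0, 15.2 and 19.2% at 12 h and at 0 in each 24 h library, a change of -17.2 points (SE 2.02, limma adjusted p = 0.0335). Pole4, a small subunit of DNA polymerase epsilon (chromosome 6, 82616532 to 82653043), went from 9.59, 9.77 and 10.2% to 0 (-9.86 points, adjusted p = 0.0335). Efcab8 (chromosome 2, 153773311 to 153844752), 71442 bases long, went from 9.32, 9.13 and 8.53% to 0 in each 24 h library (-8.99 points, adjusted p = 0.0335).

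Among the predicted models that fell, Gm39852 on chromosome 2 (74598145 to 74606232), singled out after its values were seen, had the largest fall, from 82.2, 82.0 and 96.9% to 0, 0, 0, 0 and 36.9% (-79.7 points, limma adjusted p = 0.0441). H3K27me3 covered 75.8% ± 31.6 (SD, n = 3) of it at 12 h and 100% in each library at 24 h (adjusted p = 0.176). At 24 h H3K27me3 was thus called throughout this region, while H2AK119Ub peaks remained in replicate 5 alone.

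**Figure D1:**
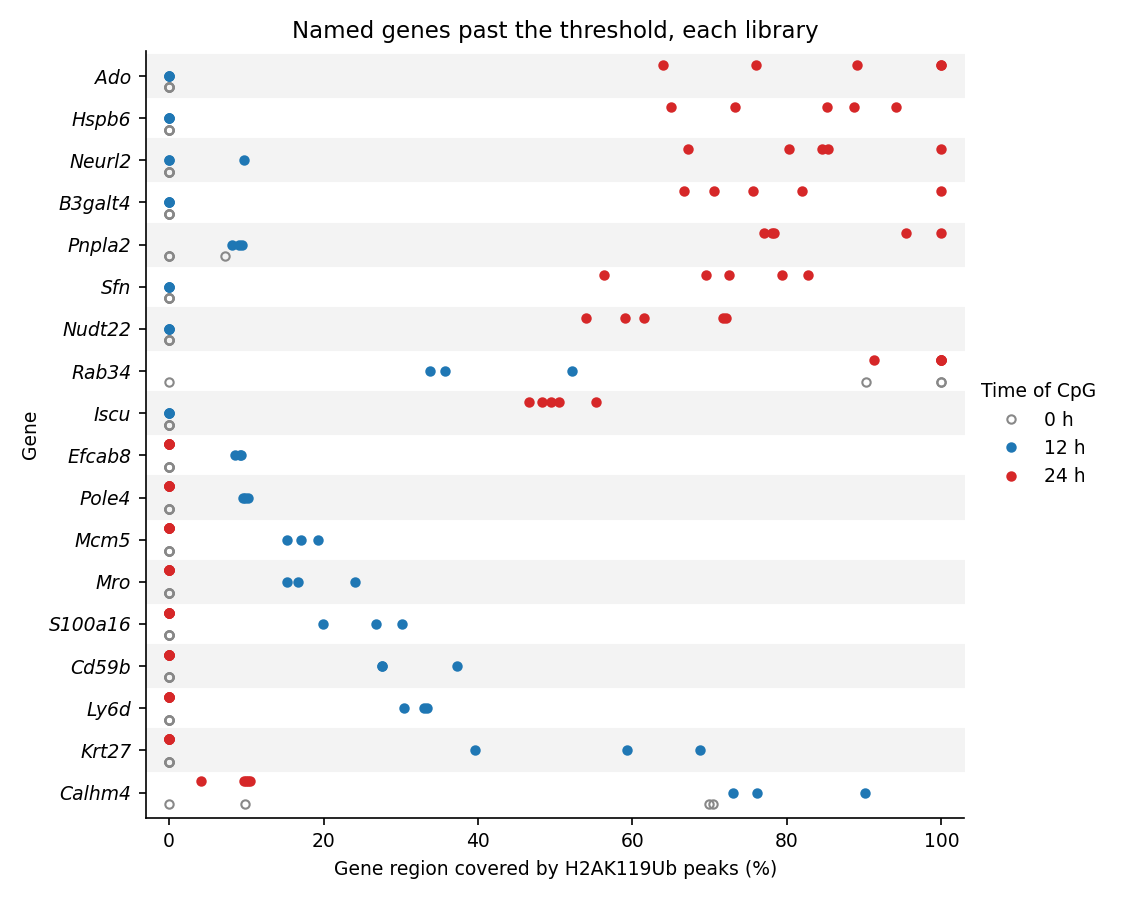
Percent of each gene region covered by H2AK119Ub peaks in every library, for the 18 named genes past the limma threshold, with 0 h as open grey, 12 h as blue and 24 h as red points. Genes that rose sit at or near 0 at 12 h except Rab34, and those that fell sit at 0 at 24 h except Calhm4.

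Where the peaks lay was described as shares of the covered length of each library. Inside gene regions lay 59.0, 57.7 and 59.3% of the covered length at 12 h and 62.3, 63.8, 63.1, 66.4 and 63.2% at 24 h. Each 24 h library was higher than each 12 h library, and the means of 58.7% ± 0.819 (SD, n = 3) and 63.7% ± 1.6 (SD, n = 5) differed by 5.07 points (exact permutation p = 0.0179, 2-sided, the smallest that 3 against 5 libraries can give). Unstimulated libraries had 53.5 to 56.3%.

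Acetylated regions gave the clearest separation. These were the 74.8 Mb of the autosomes covered by H3K27ac in at least 2 of its 3 libraries at 24 h, and the same regions were used for both times. They held 7.60, 7.52 and 7.54% of the H2AK119Ub length at 12 h and 14.6, 15.1, 14.4, 14.1 and 13.2% at 24 h. The 12 h libraries are almost identical, and each 24 h library lies far above them. The difference was 6.72 points (exact permutation p = 0.0179, the smallest possible, and 0.0714 adjusted over the 4 features, which is the smallest that a single feature at that p can reach). With regions acetylated at 12 h, chosen after the data were seen, the shares were 8.04% ± 0.0333 and 14.7% ± 0.899 (SD, n = 3 and 5). Unstimulated libraries had 5.47 to 7.60%, the range that the 12 h libraries also fall in. H3K27ac itself gave 0 genes past the limma threshold between 12 and 24 h, with 171 of 9238 at an unadjusted p under 0.05.

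H3K27me3 regions held less of the H2AK119Ub length at 24 h in these libraries, though the times overlapped. The shares were 62.0, 58.4 and 65.3% at 12 h and 44.4, 54.0, 55.2, 60.2 and 48.9% at 24 h, and only replicate 4 at 24 h, the shortest list, lies inside the 12 h range. The difference of -9.34 points did not pass (exact permutation p = 0.0714, adjusted p = 0.0952). For Ring1B the shares were 11.3, 9.88 and 12.4% at 12 h and 11.6, 16.4, 16.3, 20.5 and 12.7% at 24 h, a difference of 4.29 points (exact permutation p = 0.0536, adjusted p = 0.0952). For Suz12 the means were 9.42% and 11.1% (exact permutation p = 0.482). The lists of Ring1B and Suz12 hold a fixed top share of signal blocks, so their regions do not measure occupancy. At 24 h the H3K27me3 and Ring1B shares ran with list length, from 44.4 and 11.6% in the longest list to 60.2 and 20.5% in the shortest, so all lists were also reduced by highest signal to the 59.1 Mb of the shortest. The H3K27ac share was then 6.89% ± 0.527 against 12.4% ± 1.27 (SD, n = 3 and 5), that of H3K27me3 74.0% ± 0.0844 against 62.6% ± 2.22, and that of Ring1B 16.7% ± 0.417 against 20.4% ± 1.20, each without overlap between the times (exact permutation p = 0.0179 and adjusted p = 0.0238 for each of the 3).

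**Figure D2:**
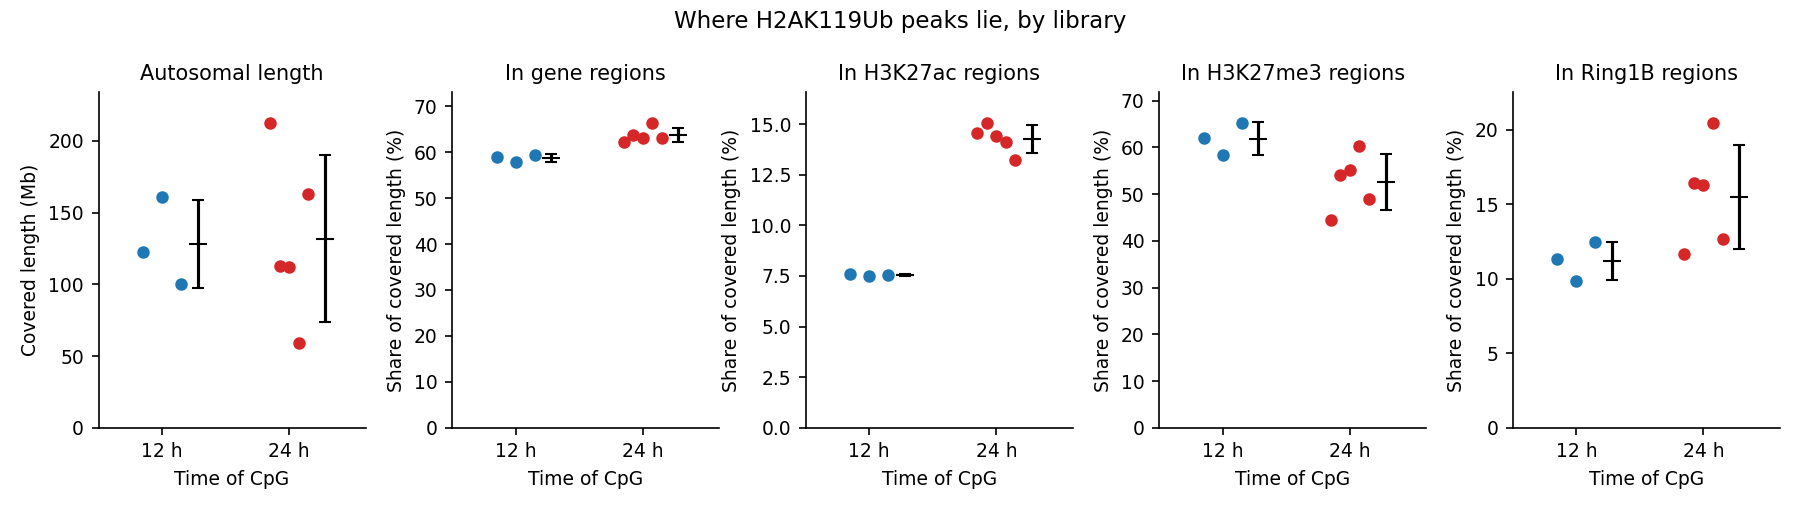
Autosomal covered length in Mb and the percent of it inside gene regions and inside 24 h regions of H3K27ac, H3K27me3 and Ring1B, 1 point for each library, with the mean and SD in black beside them. Covered length overlaps between the times, and the H3K27ac share goes from 7.52 to 7.60% at 12 h to 13.2 to 15.1% at 24 h with no overlap.

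Single bases that switched completely were singled out after the data were seen and carry no test. Covered in all 5 libraries at 24 h and in none at 12 h were 1.39 Mb, of which 47.3% lay in H3K27ac regions, 35.7% in Ring1B regions and 19.3% in H3K27me3 regions. These regions make up 3.04, 1.42 and 10.5% of the autosomes. Covered in all 3 libraries at 12 h and in none at 24 h were 1.58 Mb, of which 0.645% lay in H3K27ac regions, 1.82% in Ring1B regions and 72.7% in H3K27me3 regions. The 24.3 Mb covered in all 8 libraries had 10.7% in H3K27ac regions and 79.7% in H3K27me3 regions. Lost bases lay less often in or near genes, with 41.8% in gene regions and 1.66% within 1 kb of a gene start. Gained bases had 69.0 and 13.3%, much like the 69.3 and 10.8% of the bases covered in all 8 libraries.

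Genes grouped by their acetylation at 12 h, a grouping chosen after the data were seen, showed the same order. With no H3K27ac peak (6556 genes), the 24 h libraries were all above in 2.56% and all below in 2.58%, and the median difference was 0.307 points. With up to 25% of the region acetylated (4574 genes) these shares were 3.56 and 1.09%, and with over 25 to 50% (1177 genes) they were 7.90 and 0.34%. With over 50% (913 genes), 15.1% were above and 0 were below, and the median difference was 18.4 points. Both ends of this order were present in the scaled values, where 17.1% were above and 0.110% below in the most acetylated genes and 2.76 and 3.51% in those with no acetylation. Without 24 h replicate 4, 33.5% of the most acetylated genes were above and 0 below, with 7.90% above among the unacetylated and 11.9% among all genes.

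Mean coverage of the most acetylated genes was 21.1, 28.0 and 17.5% at 12 h and 64.5, 41.9, 38.3, 22.0 and 49.3% at 24 h, where replicate 4 falls among the 12 h libraries. Set against the unacetylated genes of the same library, the ratio was 0.660, 0.726 and 0.628 at 12 h and 1.35, 1.32, 1.23, 1.1 and 1.20 at 24 h. Among the genes tested, the most acetylated were thus less covered than unacetylated ones in each 12 h library and more covered in each 24 h library. These groups hold only genes that passed the filter. Of the 13220 tested, 1330 had no 12 h peak and 28 had no 24 h peak. How much the filter adds to these ratios and to the group shares was not tested. Grouped by H3K27me3 instead, genes with over 50% H3K27me3 at 12 h (1688 genes) had a median difference of -0.893 points and genes with none (6502 genes) one of 6.27 points.

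**Figure D3:**
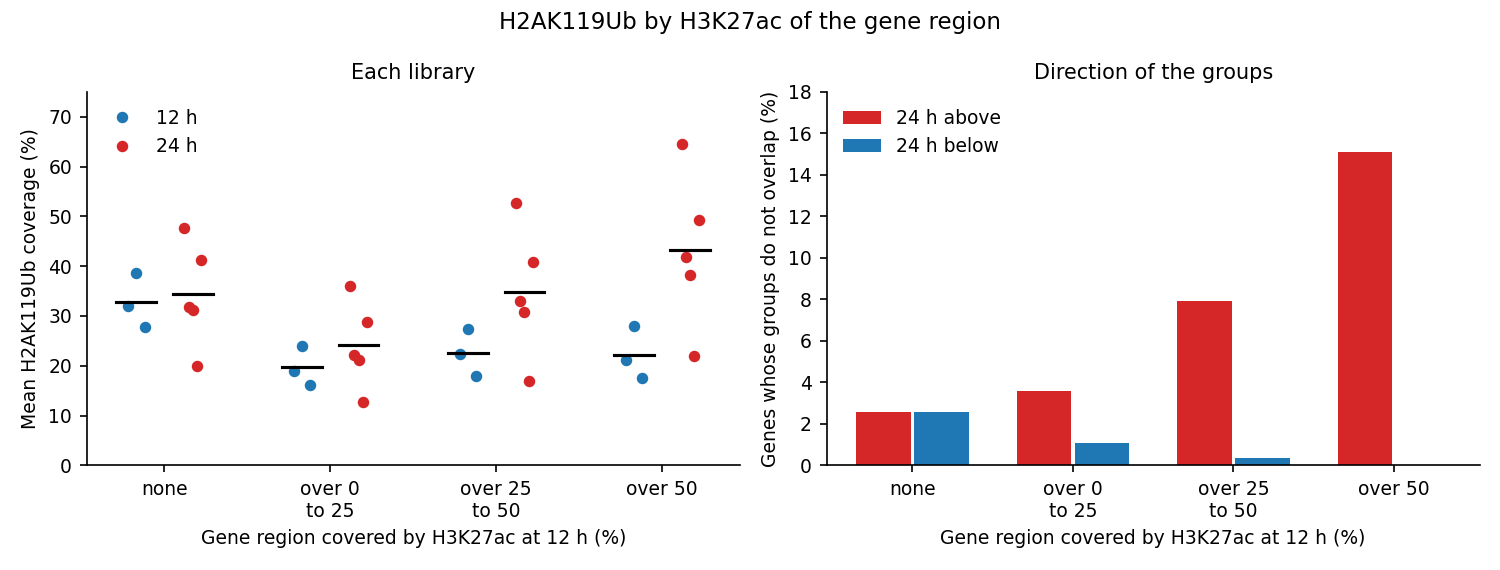
Left, mean percent of the gene region covered by H2AK119Ub in each library, with genes grouped by their H3K27ac coverage at 12 h and black bars for the means. Right, the percent of genes in which all 24 h libraries lie above or below all 12 h libraries, which goes from 2.56 and 2.58% with no H3K27ac to 15.1 and 0% with over 50%.

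Around gene starts the profile sharpened. This too was examined after the data were seen and is given without a test. Starts were called CpG-rich when the 300 base window held at least 10 CG (11463 starts). At these starts 21.2, 26.2 and 18.8% were covered at 12 h and 48.7, 32.7, 30.6, 16.8 and 35.7% at 24 h. Divided by the mean coverage 10 kb to either side in the same library, this gave 1.80, 1.76 and 1.89 at 12 h and 2.27, 2.90, 2.87, 2.59 and 2.13 at 24 h, so each 24 h library was more concentrated at the start than each 12 h library. Divided by the coverage 2 kb upstream, the ratio was 0.894, 0.922 and 0.914 at 12 h and 1.03, 1.06, 1.04, 0.970 and 0.955 at 24 h. Coverage at the start was thus slightly below that 2 kb upstream in each 12 h library, and this gap was gone or smaller in each 24 h library. The start was no local low point, since coverage 2 kb downstream was lower still, at 19.6, 22.9 and 17.2% in the 12 h libraries. At the 14284 CpG-poor starts the ratio to 10 kb ranged over 1.29 to 1.40 in the 12 h libraries and 1.32 to 1.50 in the 24 h libraries, with overlap. Their ratio to 2 kb upstream did separate the times, at 1.03 to 1.04 at 12 h and 1.05 to 1.12 at 24 h. Unstimulated libraries had 1.57 to 2.17 at CpG-rich starts.

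**Figure D4:**
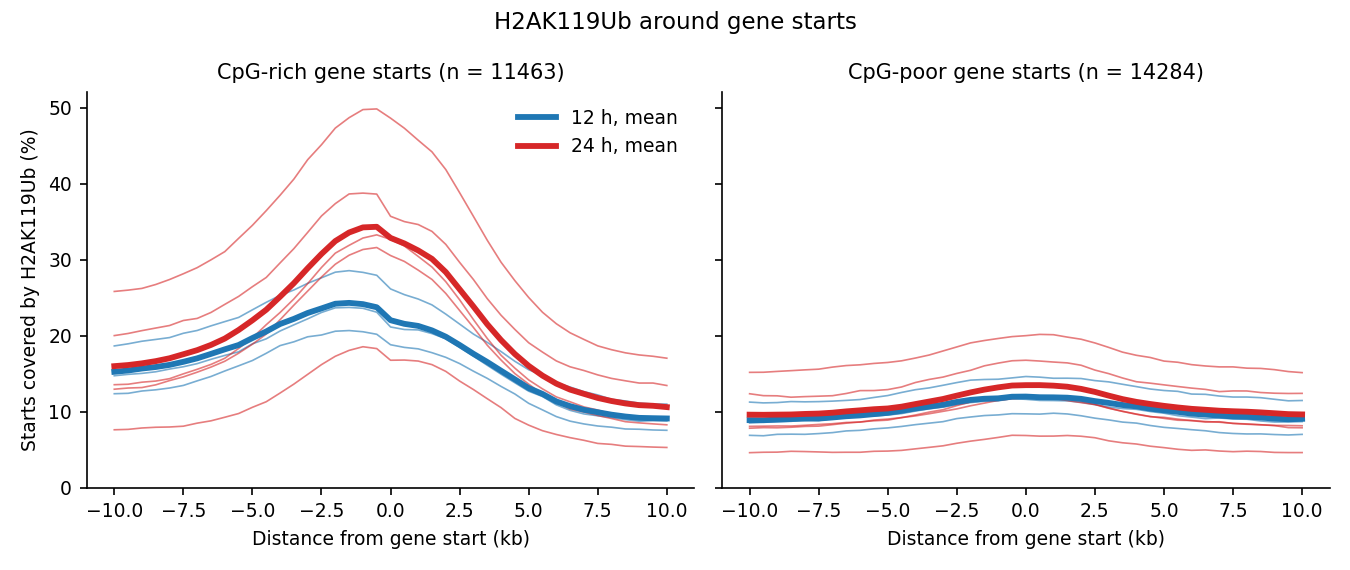
Percent of gene starts covered by H2AK119Ub peaks against the distance from the start in kb, in each library (thin lines) and as the mean of a time (thick lines). At the start itself the 24 h mean is 32.9% and the 12 h mean 22.1% for CpG-rich starts, and they are 13.5 and 12.0% for CpG-poor starts.

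The 562 genes above and 223 below without overlap also differ in other readouts from other libraries. The first have a mean H3K27ac coverage at 24 h of 28.8%, a mean H3K27me3 coverage of 16.3% and a mean Ring1B coverage of 19.9%. The second have 1.86, 44.5 and 6.62%, and all genes tested have 11.6, 29.2 and 12.5%. The genes above are shorter, with a median of 13.7 kb against 26.6 kb for those below and 16.2 kb for all tested. Fewer are lncRNA genes, 21.9% against 35.0 and 31.2%. The promoter table matched 79.2, 77.1 and 77.9% of these sets, under the 80% set as the minimum, so their promoter CG content is not compared. Without 24 h replicate 4 the counts were 1556 above and 227 below, and in the scaled values 704 and 337, both settings chosen after the data were seen. Of the 562 genes above, 194 had no 12 h peak and so entered the test only through their 24 h peaks. Of the 223 genes below, 28 had no 24 h peak. How much the uneven filter shapes the sizes and profiles of these sets was not tested.

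Gene lists of B cell function and of Polycomb targets, 20 lists with 602 genes of which 595 were matched, were compared next. Of the members 373 were tested, and 1 of them, Mcm5, passed the threshold. List medians and counts hold tested members only, so the uneven filter bears on them too. A member with no 12 h peak entered through its 24 h peaks alone. How much this adds to the medians and counts of the lists was not tested. The median difference over all genes tested was 2.37 points. Of all 13220 genes tested, 1272 had an unadjusted limma p under 0.05, 993 upward and 279 downward. The list counts at an unadjusted p stand beside these, and no list was tested against them. The 4 lists with the most H3K27ac had medians of 14.1 points or more. These were ribosomal proteins (26.5 points, 16 of 34 matched members tested, mean H3K27ac 80.3% at 24 h), B cell identity (19.8 points, 11 of 22, 84.1%), TLR and NF-kB signalling (16.8 points, 19 of 31, 53.1%) and activation and cytokine genes (14.1 points, 30 of 38, 46.5%). The medians of these 4 lists stayed between 8.44 and 37.3 points in scaled values, stricter lists, lists of equal length and without 24 h replicate 4, where all genes had 1.23 to 4.63.

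In the B cell identity list 0 members passed by limma (4 at an unadjusted p under 0.05), and in 5 of the 11 tested all 24 h libraries were above, against 4.25% of all genes tested. Cd72, an inhibitory co-receptor of the B cell receptor, was at 39.2, 49.0 and 45.3% at 12 h and at 100, 86.5, 66.0, 76.3 and 100% at 24 h (limma adjusted p = 0.242). Fcrla, an intracellular Fc receptor-like protein, was at 0 in each 12 h library and at 86.2, 34.4, 41.3, 33.3 and 55.4% at 24 h (adjusted p = 0.274). Pax5, the factor that keeps B cell identity, was at 0, 0.238 and 0.161% and then at 23.4, 6.64, 9.54, 1.92 and 13.5% (adjusted p = 0.487), with 88.4% of its region acetylated at 24 h. The other 2 were Pou2f2 and Bach2, and Cd37 rests on uneven libraries, at 0, 18.7 and 0% and then at 89.6, 11.2, 59.6, 31.0 and 100%.

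For signalling and activation genes, 0 of 19 and 0 of 30 tested members passed by limma (4 and 3 at an unadjusted p under 0.05, all upward), and in 1 gene of each list (5.26 and 3.33%) all 24 h libraries were above, a share near the 4.25% of all genes. Rela, the p65 subunit of NF-kB, was at 0 in each 12 h library and at 25, 19.5, 23.0, 17.8 and 26.5% at 24 h (limma adjusted p = 0.161). Batf, an AP-1 family factor needed for class switching, was at 0 in each 12 h library and at 70.7, 32.9, 69.2, 52.4 and 56.0% at 24 h (adjusted p = 0.13). Irf8, a transcription factor of B and myeloid cells, was at 0, 26.5 and 0% and then at 76.6, 78.1, 56.2, 19.5 and 93.5%, with replicate 4 at 24 h among the 12 h values (adjusted p = 0.398).

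The immediate-early gene Ier2 was at 0 in each 12 h library and at 100, 52.3, 100, 0 and 48.4% at 24 h (limma adjusted p = 0.431), where the 0 is again replicate 4. Of the ribosomal protein genes tested, 4 of 16 (25%) had all 24 h libraries above, against 4.25% of all genes, and 0 passed by limma (6 at an unadjusted p under 0.05). Rpl19 was at 20.6, 5.95 and 0% and then at 98.9, 30.1, 82.4, 100 and 71.5% (limma adjusted p = 0.239).

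Classical Polycomb targets were well covered at both times. Hox genes, which pattern the body axis, were covered at a median of 58.2% at 12 h and 69.6% at 24 h, with a median difference of 1.66 points over 39 of 39 members, and that of developmental transcription factors was 7.47 points (61 of 80). The Hox median was 5.53 points in scaled values, 6.02 without 24 h replicate 4 and no longer above 0 with equal lists, where 43.6% of its members had a positive difference. In scaled values developmental factors had 12.9 and neurogenic bHLH genes 13.7 points, beside 13.2 in the TLR and NF-kB list. By limma 0 of 39 and 0 of 61 passed, with 5 and 4 at an unadjusted p under 0.05. Hoxb4 was at 0 in each 12 h library and at 100, 72.8, 69.9, 27.4 and 81.3% at 24 h (limma adjusted p = 0.186), and Hoxb3 beside it was at 22.5, 22.6 and 12.6% and then at 47.5, 36.9, 39.0, 27.7 and 44.2% (adjusted p = 0.495). Six3, a factor of forebrain and eye, was at 0 in each 12 h library and at 69.5, 30.5, 27.8, 28.7 and 70.6% at 24 h (adjusted p = 0.344). Unlike the B cell genes these 3 have no H3K27ac, and H3K27me3 covered 55.8, 73.5 and 89.8% of them at 24 h.

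Of 18 neurogenic bHLH genes tested, 3 (16.7%) had all 24 h libraries above, against 4.25% of all genes, and 0 passed by limma (4 at an unadjusted p under 0.05). They are the Notch pathway repressors Hes3 and Hes7 and the neuronal factor Bhlhe22, the last at 0 in each 12 h library and at 85.6, 26.2, 55.5, 27.6 and 23.2% at 24 h (limma adjusted p = 0.427). At 24 h mean H3K27me3 coverage was 100% in Hes3 and 97.0% in Bhlhe22, both without H3K27ac. Hes7 had 0% H3K27me3 and 79.5% H3K27ac. Among the germline genes the median was -3.79 points over 14 of 28 members, and 0 passed by limma (2 at an unadjusted p under 0.05, both downward). The germline median was -0.137 points with equal lists and -1.36 with stricter lists. Nanog, a pluripotency factor, was at 28.0, 52.1 and 15.4% at 12 h and at 0 in each 24 h library (adjusted p = 0.217), while H3K27me3 covered 88.6% of it at 24 h.

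Wnt, Fgf and Bmp ligands (median -2.40 points), imprinted genes (-0.613), synapse and ion channel genes (-0.159) and myeloid genes (-2.84) lay below the median of all genes, though the myeloid, imprinted and synapse medians changed sign under at least 1 of these 4 alternatives. Chemokine genes had a median of 20.6 points over 9 of 23 matched members with 6.92% H3K27ac, which was 1.67 with equal lists. The medians of the T cell (3.71), plasma cell (1.11), ribosome biogenesis (4.68), Cdk inhibitor (0.274) and erythroid and stromal (0.543) lists were lower than those of the 4 most acetylated lists. Mean H3K27ac coverage was 34.5% in the plasma cell, 32.9% in the Cdk inhibitor and 31.2% in the ribosome biogenesis list, against 11.6% over all genes, and its relation to the medians was not tested. Some of these medians moved, that of Cdk inhibitors to 10.3 in scaled values, and those of the plasma cell, T cell and erythroid lists to 7.44, 7.75 and 6.92 without 24 h replicate 4. Cell cycle genes, with 24.9% H3K27ac, had a median of 2.27 points, and -2.28 with equal lists. E2f2, an activator of replication genes, was at 27.9, 33.4 and 16.4% and then at 52.7, 49.4, 49.3, 37.5 and 53.9% (limma adjusted p = 0.463). Of the 23 Polycomb subunit genes tested, 0 passed by limma (3 at an unadjusted p under 0.05, all upward). Bmi1, a partner of Ring1B, was at 12.2, 4.5 and 0% and then at 83.4, 40.9, 55.0, 8.45 and 35.3%, with replicate 4 at 24 h among the 12 h values (adjusted p = 0.458).

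**Figure D5:**
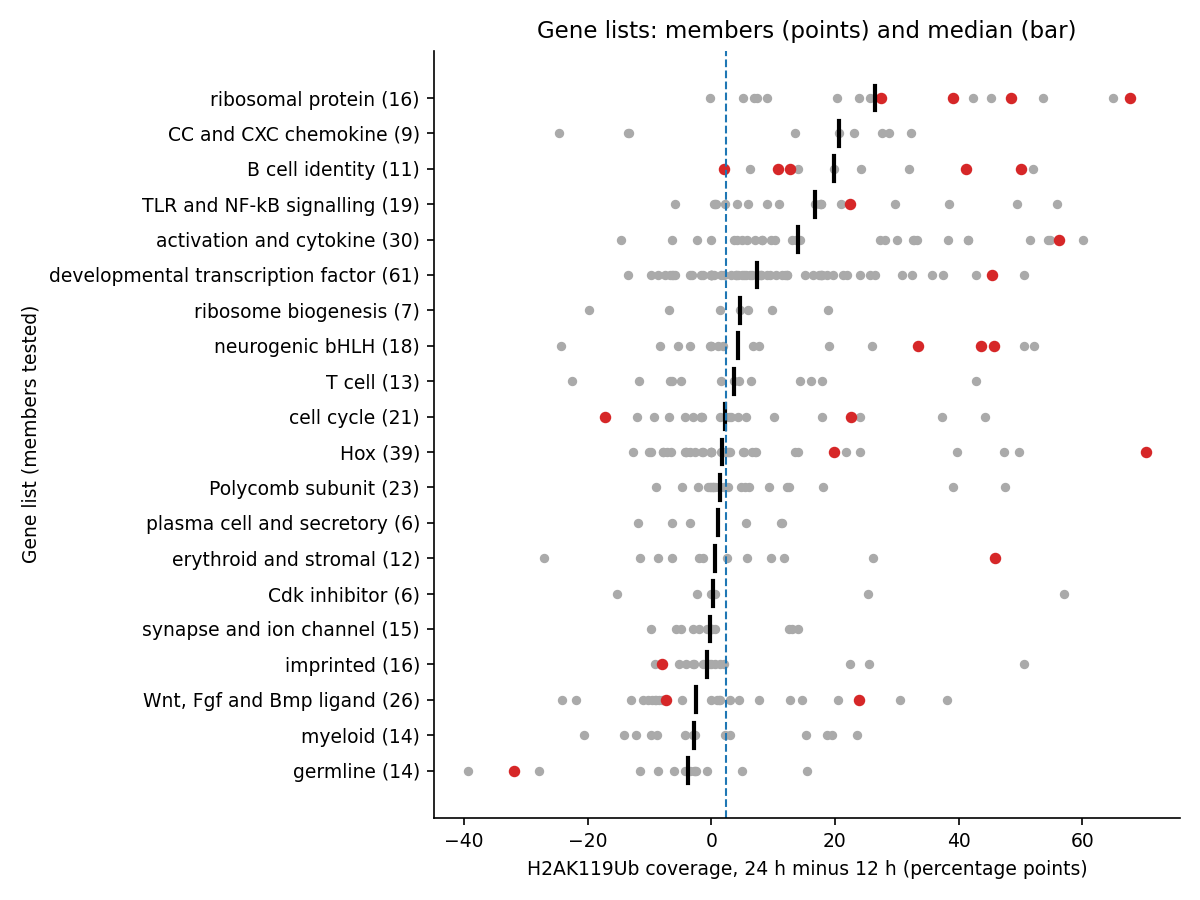
Difference in percent of the gene region covered by H2AK119Ub, 24 h minus 12 h in percentage points, for each list member tested, with red points where the libraries of the 2 times do not overlap, black bars for list medians and a dashed line at the 2.37 points of all genes. Ribosomal protein, chemokine, B cell identity, TLR and activation lists have medians of 14.1 to 26.5 points.

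H3K27me3 over the same 12 h took another course. Of 11348 genes tested for it, 3333 rose (29.4%) and 0 fell by limma, and 0 had an unadjusted p under 0.05 downward. The difference between the marks was tested as an interaction of mark and time, over 17018 genes. It passed in 1652 genes (9.71%). The change in H2AK119Ub was above that in H3K27me3 in 162 (0.952%) and below it in 1490 (8.76%). Below does not mean that H2AK119Ub fell, since the median change in H3K27me3 over its tested genes was 17.6 points. Since H3K27me3 lists grew in length, the same test was run on values divided by each library's covered length. It gave 699 genes, 300 with the H2AK119Ub change above that in H3K27me3 and 399 with it below. The 30 genes that changed were chosen by their H2AK119Ub difference, which is part of this test, so their passing it is not counted here. At Rab34 both marks rose, and the interaction did not pass (limma adjusted p = 0.398). Suz12 and Ring1B gave 0 genes past the limma threshold between these times, with 1154 of 12992 and 1433 of 14318 at an unadjusted p under 0.05.

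Bins of 100 kb, which use no gene model, gave 3 that fell (0.0355% of 8457) and 0 that rose by limma, with 751 at an unadjusted p under 0.05. They hold broad domains. On chromosome 8, from 115300001 to 115400000 in Wwox, a long gene at a fragile site, coverage was 96.2, 91.8 and 75.8% at 12 h and 29.6, 37.7, 34.5, 16.2 and 37.5% at 24 h, a change of -56.8 points (limma adjusted p = 0.0238). From 115500001 to 115600000 on the same chromosome it was 56.4, 62.7 and 46.7% and then 6.07, 13.8, 5.59, 0 and 7.41% (-48.7 points, adjusted p = 0.022). On chromosome 5, from 39400001 to 39500000, it was 42.2, 45.7 and 22.4% and then 0 in each 24 h library (-36.8 points, adjusted p = 0.0238). In scaled values 368 bins passed, 169 upward and 199 downward, and the count was 0 without 12 h replicates 1 or 2 or without 24 h replicates 3 or 5, 1 without 24 h replicate 2, 5 without 24 h replicate 1 and 11 without 12 h replicate 3.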

How the data were processed

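The authors deposited 1 peak list per sample, each of 6 columns without a header. The file names give SEACR as the caller, set to "norm relaxed" for modifications and, for the Polycomb subunits, to "non, 0.01, stringent". The labels name mm10 as the build. Trimmomatic 0.32, Bowtie2 2.3.4.1, Picard and deepTools 3.5.1 appear in the submitters' processing notes. Not given in the sources used here are SEACR's version, how reads were assigned to alleles, how the spike-in was used and how deeply libraries were sequenced. Each peak's total and highest signal, which the authors deposited as coverage, ranked peaks inside their own list and had no other use. A last deposited column, of another kind, places the highest signal and was left aside. The 3 IgG samples were not analysed here.

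Overlapping peaks were merged, and the percent of each autosomal gene region covered was computed from the RefSeq gene table of GRCm38.p6. Genes were tested with limma 3.58.1 in R 4.3.3 (trend and robust options, 8 libraries, threshold 0.05), and the fit was tested on simulated data. Single values were compared with exact permutation tests on the absolute difference. Other steps used Python 3.11.15, pandas 2.3.3, numpy 2.4.6 and matplotlib 3.10.9. Named are passing genes among the 10 largest changes in points or 6 largest in kb each way, predicted models left out, and up to 3 members of each list by p. All members, lists and rules were chosen with earlier results of these data known. Alternatives were scaling by covered length, stricter lists (the 50% of peaks in each list with the higher total signal), equal lists, other flanks, filters and fits, a replicate block and leaving out each library. Results for 2 members of these lists are not reported here.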

Additional observations from a re-analysis of the deposited data

Results flagged for a closer look

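Within groups of 4 or 5 libraries, 42 groups of values of named genes were examined for a value far from the rest, and 4 were found. The nominal rate is about 1 in 20, but it does not hold where the other values are tied at 0 or 100%. No excess over chance is therefore read from this count. Rab34 was at 91.3% in 24 h replicate 4 and at 100% in the other 24 h libraries, and it was at 0% in 0 h replicate 4 and at 90.2 to 100% in the other 0 h libraries. Calhm4 was at 4.17% in 24 h replicate 4, below the other 24 h libraries at 9.75 to 10.4%. Pnpla2 was at 7.26% in 0 h replicate 2 and at 0 in the others. The 24 h values of Rab34 and Calhm4 both come from the library with the shortest list.

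The step from 12 to 24 h differed between H2AK119Ub and H3K27me3 in 1652 of 17018 genes by the limma interaction test.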

How the results depend on the processing

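Read depth is unknown and sets which peaks enter a list, and 24 h replicate 4 is short. The count of 30 genes changed (15 higher, 15 lower) depends on the fit. It was 224 (176 and 48) with all 12 libraries in the fit, 0 with scaling by covered length, 87 (41 and 46) with lists of equal length, 1 (0 and 1) with 5 kb flanks, 1 (1 and 0) with a peak in at least 1 library 63 (48 and 15) without the trend and robust options, 42 (26 and 16) with stricter lists and 0 with the replicate block. The cause of each change was not tested. Leaving out 1 library gave 0 to 154 genes changed, 0 to 136 higher and 0 to 18 lower. Of the list members 1 passed, against 10 with all 12 libraries, 0 with scaling, equal lists, 5 kb flanks, the looser filter or the replicate block, and 0 to 6 with 1 library left out. The 3 bins became 368 with scaling, 113 with equal lists, 0 with stricter lists, 0 with the replicate block and 0 to 11 with 1 library left out. The interaction count became 699 with scaling and 774 with the replicate block.

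The replicate block uses numbers that the labels do not tie between the times. Same-numbered libraries of the 2 times correlated at -0.0110, -0.0300 and 0.0143 in their deviations from the group means. With so few libraries these values cannot tell whether the samples were paired.

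With equal lists the differences in share inside regions of H3K27me3, H3K27ac and Ring1B were -11.4, 5.53 and 3.77 points, all past 0.05 after adjustment (exact permutation adjusted p = 0.0238). With 1 library left out the differences ranged from -11.2 to -7.31 points for H3K27me3, 6.52 to 6.99 for H3K27ac, 0.486 to 2.58 for Suz12, 3.04 to 5.26 for Ring1B and 4.39 to 5.43 for gene regions. The log2 difference in covered length ranged from -0.26 to 0.21.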
